A study of Mus musculus with 2 samples.

Results

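Genes of the extracellular adenosine pathway were followed through the immune cells of MC38 tumours. They were *Entpd1* (CD39) and *Nt5e* (CD73), the adenosine receptor genes *Adora2a* and *Adora2b*, and *Ada* (adenosine deaminase). The genes were chosen by symbol, and all 5 were found among the 27998 genes of the count matrices. MC38 is a mouse colon carcinoma line. It was grown intradermally at 4 sites per mouse in C57BL/6J mice for 7 days, after which tumours received a control injection or a daily dose of 200 µg per mouse of an antibody against the checkpoint receptor PD-1. Tumours were taken on day 10, and viable CD45+ cells, the common surface marker of blood-derived cells, were sorted for droplet single-cell RNA sequencing of transcript 3′ ends. There was 1 control and 1 anti-PD-1 library. The number of mice, any pooling and the content of the control injection are not given in the sources used here.

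As background, CD39 on the cell surface removes phosphates from extracellular ATP and ADP, which are released by stressed and dying cells, and leaves AMP. CD73 then converts AMP to adenosine, which acts through receptors that raise cyclic AMP in T cells, NK cells and myeloid cells and dampen their responses. Adenosine deaminase ends the signal by turning adenosine into inosine. In mouse tumours the enzymes are best known from regulatory T cells, exhausted CD8 T cells and myeloid cells, and the pathway is a drug target alongside PD-1.

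The control matrix held 5203415 unique molecular identifiers (UMIs, counts of captured RNA molecules) and the anti-PD-1 matrix 13717817. Barcodes with at least 1000 UMIs and at most 10% mitochondrial UMIs were taken as cells, 1174 in the control library and 3321 after anti-PD-1, with medians of 3287 and 2763 UMIs. Marker UMIs placed 1064 and 3058 of them in 17 classes, and 98 and 216 stayed without a class. Another 12 and 47 carried markers of unlike cells and were left out of the classes. Leaving out the 4 cell barcodes found in both libraries changed no call. Free RNA made up an estimated 1.61% and 1.81% of the UMIs in cells. Markers that no gate used were higher in their own class than in all other gated cells, with 3 exceptions. These were *Cd163* in anti-PD-1 Ccl8/Mrc1 macrophages, *Cd300e* in control nonclassical monocytes and *Itgax* in control cDC2. Class sizes differed, with 71 control and 1084 anti-PD-1 CD8 T cells and 4 and 177 neutrophils.

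Levels below are CPM, the gene's UMIs divided by all UMIs of the class and scaled to 1000000, with exact 95% Poisson intervals. Shares of cells carry exact Clopper-Pearson intervals, and ratios (anti-PD-1 over control, log2) carry conditional binomial intervals. All of these cover counting error only. With 1 library per group no difference has a replicate check, and every statement compares these 2 libraries. Where a level or a share of cells is 0, the limit given is that of 3 UMIs or 3 cells. CPM of different genes are not compared, since capture at the 3′ end differs between genes. All 5 genes were sparse: in gated cells the control and anti-PD-1 libraries held 132 and 416 *Entpd1* UMIs, 140 and 165 of *Nt5e*, 76 and 247 of *Adora2a*, 31 and 108 of *Adora2b*, and 34 and 68 of *Ada*. The free RNA alone would give a class few of them, at most 3.29 expected *Entpd1* UMIs of 115 in the largest class, anti-PD-1 CD8 T cells. The expected part is larger where a class holds few UMIs, such as the 1 *Adora2b* UMI of those cells. The estimate is rough, since the free RNA held 1 control UMI of each gene (0 of *Adora2b*) and 5 to 15 anti-PD-1 UMIs.

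**Figure D1:**
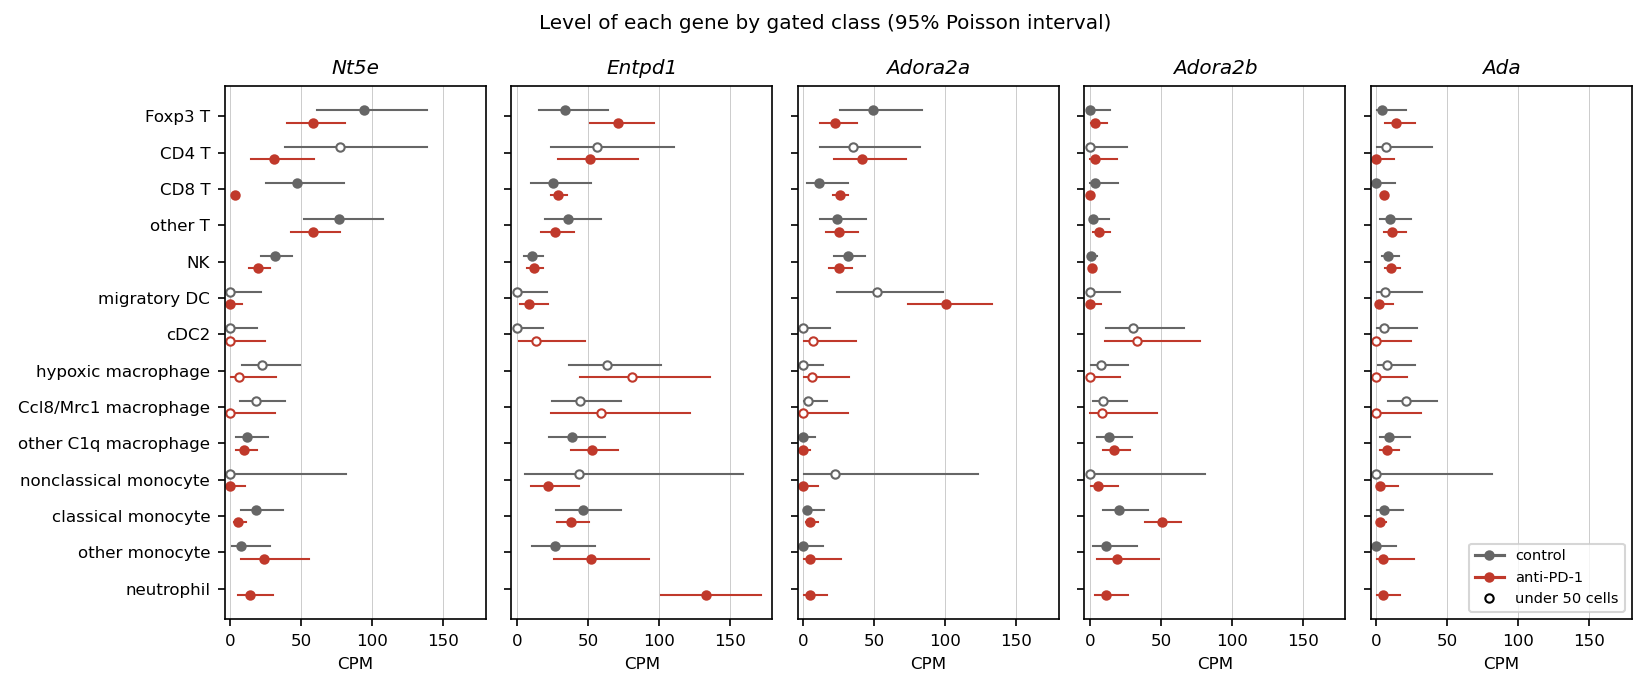
Level of each of the 5 genes (CPM, horizontal axes) in 14 gated classes (rows), control in grey and anti-PD-1 in red; bars are 95% Poisson intervals, open points are classes with under 50 cells and classes with under 10 cells are not drawn. *Entpd1* is highest in anti-PD-1 neutrophils (133 CPM), *Adora2a* in anti-PD-1 migratory dendritic cells (100.1 CPM) and *Adora2b* in anti-PD-1 classical monocytes (50.5 CPM).

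*Entpd1*, which encodes the first enzyme (ENSMUSG00000048120, GRCm38 chromosome 19, 40612366 to 40741602, plus strand), was present in myeloid and T-cell classes alike. In the anti-PD-1 library it was highest in neutrophils, at 133 CPM (101 to 172), from 58 UMIs in 47 of 177 cells. That interval lay wholly above those of the 10 other classes with at least 50 cells. Neutrophils were shallow cells, with a median of 2065 UMIs, and yet 26.6% of them carried an *Entpd1* UMI, or 15.8% after each cell was thinned to 1000 UMIs. In migratory dendritic cells, where the gene was lowest, the share was 2.88% at a median of 4262 UMIs, or 0.962% when thinned. The control library could not be set beside this, because 1 UMI in 4 neutrophils is no level.

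Below neutrophils, anti-PD-1 Foxp3 T cells (cells with a UMI of the regulatory T-cell factor *Foxp3*) had 71.5 CPM of *Entpd1* (51.5 to 96.6), and C1q macrophages outside the hypoxic and Ccl8/Mrc1 subsets had 52.8. Other monocytes followed at 52.1 CPM and CD4 T cells at 51.6. Each of these intervals overlapped that of the next class down, while that of Foxp3 T cells lay wholly below that of neutrophils. CD8 T cells had 29.1 CPM (24.0 to 34.9) and NK cells 11.9 (7.19 to 18.7), and the CD8 T interval lay wholly above that of NK cells.

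In the control library the order was flatter. *Entpd1* stood at 46.5 CPM in classical monocytes, 38.9 in other C1q macrophages, 35.7 in other T cells and 33.8 in Foxp3 T cells, with overlapping intervals. NK cells were lowest of the 7 ranked classes at 10.3 CPM (5.17 to 18.5). Hypoxic macrophages, gated by *Mt2* and *Hilpda*, had 63.3 CPM in 39 control cells and 80.9 in 28 anti-PD-1 cells, both too few to rank.

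*Nt5e*, which encodes the enzyme that makes adenosine (ENSMUSG00000032420, chromosome 9, 88327197 to 88372092, plus strand), had most of its UMIs in T and NK cells. Control T cells held 57.9% of them beside 25.4% of all UMIs, and NK cells 23.6% beside 24.1%. After anti-PD-1 these were 64.2% beside 49.9% and 18.8% beside 13.9%, but CD8 T cells held 8.48% beside 34.6%. In the control library *Nt5e* was highest in Foxp3 T cells at 93.9 CPM (60.7 to 139), from 25 UMIs in 23 of 86 cells. Other T cells, which showed neither *Foxp3*, *Cd4* nor *Cd8*, had 76.1 CPM (52.1 to 107). In the expression clusters described below, 47 of the 144 control and 98 of the 329 anti-PD-1 other T cells fell in cluster 4. That cluster also holds most Foxp3 T cells, so the 2 classes are not wholly separate populations. Control CD4 T cells, at 43 cells too few to rank, had 77.2 CPM (38.5 to 138). These intervals overlap one another, while those of Foxp3 T and other T cells lay wholly above those of NK cells (31.0 CPM), classical monocytes (18.1), other C1q macrophages (11.4) and other monocytes (7.63) in the control library.

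The anti-PD-1 library kept the same top of the order. Other T cells had 58.0 CPM (42.7 to 76.8) and Foxp3 T cells 57.9 (40.1 to 80.9), each with an interval wholly above those of 7 other ranked classes. CD4 T cells followed at 30.9 CPM, other monocytes at 23.7 (7.69 to 55.3, 5 UMIs) and NK cells at 19.5. No *Nt5e* UMI was found in 104 anti-PD-1 migratory dendritic cells (limit 6.39 CPM and 2.88% of cells). As a share of cells, *Nt5e* was carried by 26.7% of control and 13.8% of anti-PD-1 Foxp3 T cells, or 10.5% and 5.85% after thinning.

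CD8 T cells stood apart between the libraries. Control CD8 T cells had 46.9 CPM of *Nt5e* (25.0 to 80.1), 13 UMIs in 12 of 71 cells. Anti-PD-1 CD8 T cells had 3.54 CPM (1.94 to 5.94), 14 UMIs in 13 of 1084 cells, so that 16.9% and 1.20% of cells carried the gene. The intervals did not overlap, and the log2 ratio was −3.73 (−4.92 to −2.52). Of 9162 genes with at least 10 UMIs in CD8 T cells, 2.31% were past 2-fold lower with the interval below 0. After thinning, 1 of 71 control cells and 6 of 1084 anti-PD-1 cells still carried a UMI (1.41% and 0.554%), and the ratio of those few UMIs was −1.35 with an interval that spans 0 (−4.39 to 4.18).

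The CD8 T cells of the libraries were not the same mixture, so *Nt5e* was also read within granzyme subsets, split after the class values were seen. In CD8 T cells with *Gzmb* and no *Gzmk* (granzymes B and K, proteases of cytotoxic granules), *Nt5e* was 59.7 CPM over the 30 control cells and 8.35 CPM over the 295 of the anti-PD-1 library, from 8 UMIs each, a log2 ratio of −2.84 (−4.45 to −1.23). In cells with *Gzmk* it was 50.6 CPM (3 UMIs, 16 cells) and 1.45 CPM (4 UMIs, 708 cells). In cells with neither it was 23.8 and 8.21 CPM from 2 UMIs each, with an interval of the ratio that includes 0. The lower level was thus present in both granzyme subsets, which rest on 8 and 3 control UMIs. This split does not separate the clusters given below.

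Markers of NK cells were read beside this result. Of the 71 control CD8 T cells, 17 (23.9%) carried a UMI of an NK gate gene, against 195 of 1084 (18.0%) in the anti-PD-1 library. Those 17 held 8 of the 13 control *Nt5e* UMIs (74.3 CPM), at a median of 5687 UMIs per cell against 2872.5 in the other 54. In the anti-PD-1 library the order was opposite, with 2.02 CPM (2 UMIs) in cells with such a UMI and 4.05 CPM in cells without. The intervals overlapped in each library. In CD8 T cells without such a UMI, *Nt5e* was still lower in the anti-PD-1 library, at 29.4 CPM (5 UMIs, 54 cells) against 4.05 CPM (12 UMIs, 889 cells), with a log2 ratio of −2.86 (−4.47 to −1.005). With a *Cd8b1* UMI required, the ratio was −3.71.

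Leiden clusters, computed without the 5 genes, give a further view by cluster number. Values of a cluster are over all its cells, with those without a class and those with markers of unlike cells. Cluster 12, led by *Ifng* and *Ccl3*, the genes of interferon gamma and a chemokine, was 18 CD8 T cells of 19 in the control library and 87 of 98 after anti-PD-1. *Nt5e* was 108 CPM there in the control (10 UMIs) and 12.7 CPM in the anti-PD-1 library (5 UMIs), a log2 ratio of −3.09 (−4.99 to −1.41). Those 18 control CD8 T cells held all 10 control UMIs, out of 13 in the 71 control CD8 T cells. The control level of the class thus rests mainly on this cluster. Cluster 13, which held 676 of the 1084 anti-PD-1 CD8 T cells and whose leading genes include hemoglobin genes and *Gzmk*, had no *Nt5e* UMI among its 23 control cells. The 723 cells of that cluster taken after anti-PD-1 had 2.37 CPM. The depth of the 23 control cells, where 2 UMIs of a gene make 37.2 CPM, gives no bound on this ratio. The 0 there is thus not a lower level. Cluster 5, led by *Klra1* and *Klra6*, held 19 of the 71 control CD8 T cells and 45 of the 1084 after anti-PD-1, beside a larger number of other T cells. *Nt5e* was not lower there, at 37.4 and 41.9 CPM (0.16, −1.17 to 1.61). The class was thus spread over clusters in unlike proportion, with cluster 13 holding 18 of the 71 control cells.

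**Figure D2:**
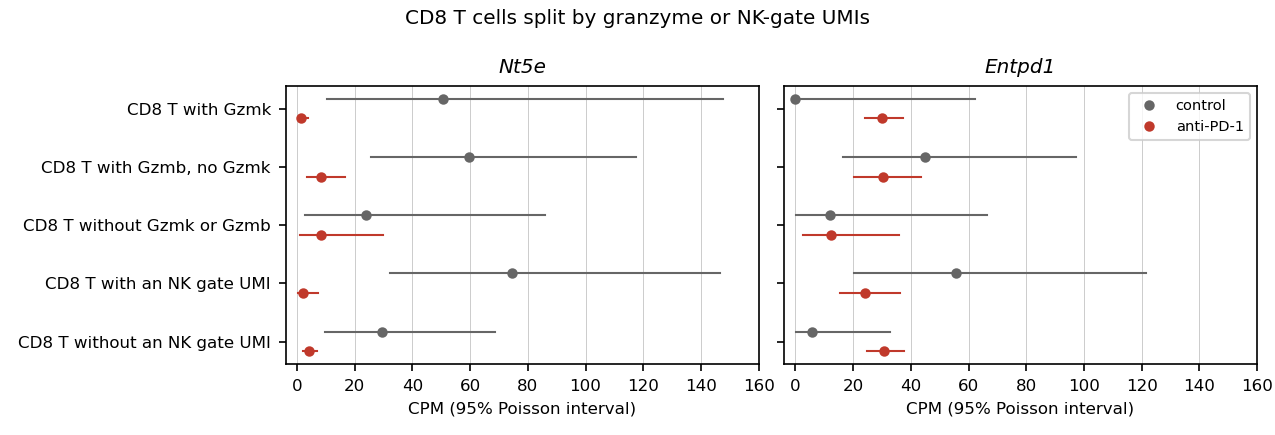
*Nt5e* (left) and *Entpd1* (right) levels (CPM, 95% Poisson interval) in CD8 T cells split by granzyme UMIs or by a UMI of an NK gate gene, control in grey and anti-PD-1 in red. *Nt5e* is 59.7 and 8.35 CPM in cells with *Gzmb* and no *Gzmk*, while the *Entpd1* intervals of the libraries overlap in every subset drawn.

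Over all T cells together, *Nt5e* was 72.3 CPM (57.4 to 89.8) in the control library and 18.6 (15.2 to 22.5) after anti-PD-1. The log2 ratio was −1.96 (−2.39 to −1.52). After thinning the ratio was −1.11 (−1.88 to −0.30), and as a mean over cells −1.52. In all T cells 3.61% of 10107 genes were past 2-fold lower with the interval below 0. CD8 T cells, the T-cell class with the lowest anti-PD-1 level, numbered 71 of 348 T cells in the control and 1084 of 1716 after anti-PD-1. In Foxp3 T cells the ratio was −0.70 (−1.49 to 0.11), in NK cells −0.67 (−1.43 to 0.08) and in other T cells −0.39 (−1.07 to 0.30), all with intervals that include 0.

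Within the other T cells, those with a UMI of *Klra1* (an inhibitory lectin-like receptor) or *Il22* (a cytokine of innate-like lymphocytes) had 26.2 CPM of *Nt5e* in the control (3 UMIs) and 81.7 in the anti-PD-1 library (11 UMIs), with a ratio interval of −0.28 to 4.12. The remaining other T cells went from 94.8 to 53.3 CPM, a ratio of −0.83 (−1.57 to −0.08), short of 2-fold. Most NK cells fell in 2 clusters that also held other cells. Cluster 8, led by the granzymes *Gzmc* to *Gzmg*, held 88 NK cells of 100 in the control and 189 of 247 after anti-PD-1. *Nt5e* was 37.8 and 14.3 CPM over that cluster, a ratio of −1.40 (−2.46 to −0.36). Cluster 3 held 204 NK cells of 255 and 304 of 383. Over it *Nt5e* was 37.0 and 25.2 CPM with an interval that includes 0 (−1.49 to 0.36). A split of NK cells by UMIs of these granzymes did not show the same order. Cells with them had 25.3 and 19.4 CPM (−0.38, −1.55 to 0.83) and cells without 35.7 and 19.6 CPM (−0.87, −1.93 to 0.16).

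Of the 35 ratios formed over the 5 genes and the 7 classes that reached 50 cells in each library, 22 had a value and at least 10 UMIs. Past 2-fold with the interval on 1 side of 0 were 4, with 2 lower and 2 higher in the anti-PD-1 library. Besides *Nt5e* in CD8 T cells these were *Nt5e* in classical monocytes, *Entpd1* in Foxp3 T cells and *Adora2b* in classical monocytes. Over all genes the rule could also call a gene with 0 UMIs in 1 library, with 3 UMIs put in place of the 0. It called 2.87% higher and 1.81% lower in Foxp3 T cells, 1.92% and 2.31% in CD8 T cells, 2.1% and 1.57% in other T cells, and 2.08% and 1.15% in NK cells. It called 3.53% and 2.72% in other C1q macrophages, 3.55% and 3.56% in classical monocytes, and 6.02% and 2.64% in other monocytes.

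**Figure D3:**
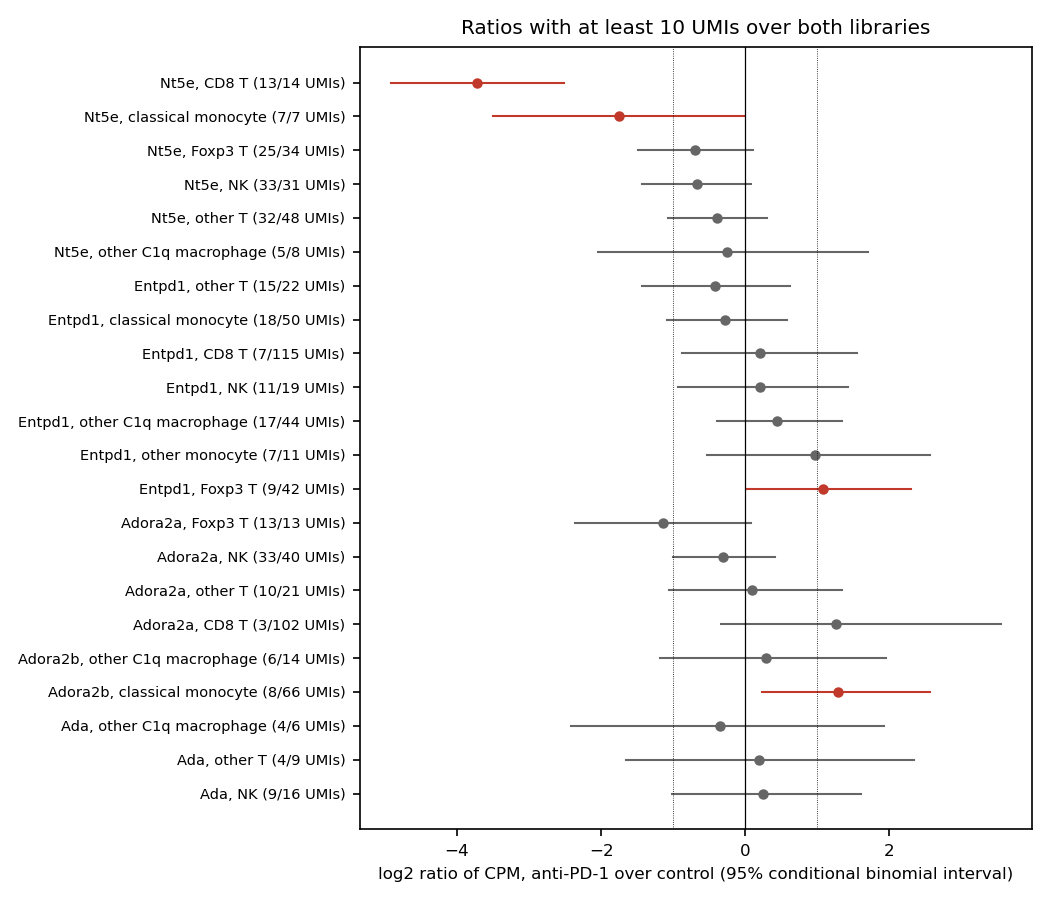
Log2 ratio of CPM, anti-PD-1 over control, for the 22 gene and class pairs with at least 10 UMIs over both libraries (rows; control and anti-PD-1 UMIs in brackets), with 95% conditional binomial intervals; dotted lines mark 2-fold and red marks the 4 ratios past it with the interval on 1 side of 0. *Nt5e* in CD8 T cells lies farthest from 0 at −3.73.

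*Nt5e* in classical monocytes was 18.1 CPM (7.27 to 37.3) in the control library and 5.36 (2.15 to 11.04) after anti-PD-1, from 7 UMIs each. The ratio of −1.75 (−3.49 to −0.01) only just left 0, in a class where 3.56% of genes were called lower, and the call held under 3 of 9 alternative settings that give an interval. Without the deepest 5% of barcodes the ratio was −0.49 (−2.62 to 2.09). Those few UMIs sat in 4 control and 6 anti-PD-1 cells.

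*Entpd1* in Foxp3 T cells was 33.8 CPM (9 UMIs in 8 of 86 cells) in the control library and 71.5 CPM (42 UMIs in 37 of 188 cells) after anti-PD-1. The ratio was 1.08 (0.02 to 2.31), in a class where 2.87% of 6240 genes were called higher. After thinning, 6.38% of anti-PD-1 cells and 0 of 86 control cells carried a UMI. The limit of 3 cells is 3.49% there, and the exact interval of 0 of 86 reaches 4.20%. With a mitochondrial limit of 5% the interval of the ratio reached 0 (−0.02 to 2.27), and the call also rests on the gate. In cluster 4, which holds 84 of the 86 control and 165 of the 188 anti-PD-1 Foxp3 T cells together with T cells that showed no *Foxp3* UMI, *Entpd1* was 62.3 and 77.3 CPM, a ratio of 0.31 (−0.351 to 1.0004).

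In CD8 T cells *Entpd1* was 25.2 CPM in the control (7 UMIs) and 29.1 in the anti-PD-1 library (115 UMIs), a ratio of 0.21 (−0.88 to 1.55). Within the anti-PD-1 library, CD8 T cells with *Gzmk* had 30.2 CPM, those with *Gzmb* and no *Gzmk* 30.3 CPM, and those with neither 12.3 CPM. In the control the same subsets had 0 (limit 50.6), 44.7 and 11.9 CPM. In all C1q macrophages it was 47.0 and 57.8 CPM, with an interval of the ratio that includes 0.

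CD39 on tumour CD8 T cells is commonly read as a mark of exhausted, tumour-reactive cells, so the anti-PD-1 CD8 T cells with and without an *Entpd1* UMI were compared within that library. Carriers were the deeper cells when all UMIs were used (medians of 3281 and 2916), so carriers were picked after thinning, 40 against 1044 other cells. The levels compared are still sums of all UMIs of these cells. Before thinning 109 cells carried *Entpd1*, and those that lost the UMI count among the 1044. The exhaustion list was *Pdcd1*, *Havcr2*, *Lag3*, *Tigit*, *Ctla4*, *Tnfrsf9*, *Tox*, *Cd160*, *Cd244*, *Rgs16*, *Gzmb* and *Ifng*. It holds *Gzmb* and *Ifng* beside checkpoint receptors, so its counts do not measure exhaustion alone. Of these 12 genes 11 were measured, with 5 higher and 5 lower in carriers and the remaining gene in neither count. The interval lay above 0 for 2 and below 0 for 2. The median log2 ratio was 0.02, beside 0.06 over all genes. *Pdcd1*, which encodes PD-1, was 254 against 165 CPM (0.62, 0.04 to 1.15). *Ctla4*, another checkpoint receptor, was 330 against 207 CPM (0.67, 0.17 to 1.13). *Ifng* was lower in carriers, 262 against 588 CPM (−1.17, −1.73 to −0.66). Of the 11 genes 0 were past 2-fold higher and 3 lower (*Ifng*, *Tnfrsf9* and *Tox*, the last on 1 carrier UMI), beside 8.05% and 7.86% of all genes.

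With all UMIs (109 carriers, 975 others) *Pdcd1* was 219 against 160 CPM and *Ifng* 339 against 610 CPM. *Lag3*, a checkpoint receptor, was 275 against 156 CPM. These carriers include all those picked after thinning, and both comparisons sum the same UMIs of the same cells. The shared direction of *Pdcd1* and *Ifng* is thus no independent check. *Tnfrsf9*, an activation receptor, depended on how carriers were picked. It was 50.7 against 191 CPM with carriers from thinned counts and 180 against 188 CPM with carriers from all UMIs. Of the 7 naive or memory genes 5 were lower in thinned carriers and 6 with all UMIs, with medians of −0.32 and −0.61. With all UMIs 1 was past 2-fold higher and 3 lower, beside 2.17% and 6.79% of all genes. The lymph-node homing receptor gene *Ccr7* was lower, at 10.7 against 35.3 CPM (−1.72, −3.37 to −0.46). *Klf2*, a transcription factor of resting T cells, was higher, at 32.2 against 15.5 CPM (1.06, 0.12 to 1.90).

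In anti-PD-1 Foxp3 T cells carriers were likewise picked after thinning, with levels from all UMIs. Carriers of *Nt5e* (11 cells, against 177) were higher in 10 of 13 measured genes of the effector regulatory T-cell list. The median log2 ratio was 0.38 beside 0.04 over all genes. Before thinning 26 cells carried *Nt5e*, and those that lost the UMI count among the 177. Carriers of *Entpd1* (12 cells, against 176) were likewise higher in 10 of 13, with a median of 0.16 beside −0.02. None of these genes was past 2-fold, where 10.4% of all genes were higher and 7.85% lower in *Nt5e* carriers, and 5.41% and 11.6% in *Entpd1* carriers. In the control library *Nt5e* carriers picked after thinning (9 against 77 cells) were higher in 8 of 13 with a median of 0.09. Carriers picked by all UMIs were higher in 4 of 13 with a median of −0.14.

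CD39 and CD73 act in sequence, on 1 cell or on neighbours, so cells carrying both transcripts were counted. There were 19 of 1064 in the control (1.79%, 1.08 to 2.77) and 19 of 3058 in the anti-PD-1 library (0.621%, 0.374 to 0.969). Both transcripts are rarely caught together at low depth. After thinning, 0 control cells (limit 0.282%) and 3 anti-PD-1 cells (0.0981%) carried both, and control carriers had a median of 5546 UMIs against 3420 for all gated control cells. In the anti-PD-1 library those medians were 2715 and 2850.5.

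By class, the 19 control cells were 5 CD4 T, 3 CD8 T, 2 other T, 1 Foxp3 T and 2 NK cells, with 6 macrophages and monocytes. The 19 anti-PD-1 cells included 6 Foxp3 T, 2 CD4 T, 1 CD8 T and 1 other T cells, 2 neutrophils and 7 macrophages and monocytes, and no NK cell. In control CD4 T cells, 5 of the 8 cells with *Nt5e* also carried *Entpd1*, against 3 of the 35 without it. After thinning these were 0 of 3 and 2 of 40. In control Foxp3 T cells the order was opposite, with 1 of 23 (4.35%) and 7 of 63 (11.1%). Over all gated control cells *Entpd1* was carried by 17.3% (10.7 to 25.7) of cells with *Nt5e* and by 9.43% (7.65 to 11.5) of cells without. In the anti-PD-1 library those shares were 13.6% (8.37 to 20.4) and 11.8%. A C1q UMI, a macrophage marker, was in 2 of the 11 control T cells with both enzymes (18.2%) and in 9.79% of the other control T cells, and in 0 of 10 and 6.86% in the anti-PD-1 library. It was also in 1 of the 2 control NK cells with both. A *Cd3* UMI, a T-cell marker, was in 1 of 4 control and 1 of 3 anti-PD-1 C1q macrophages with both, beside 8.54% and 13.8% of the other C1q macrophages. The part of these markers in the counts was not tested.

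**Figure D4:**
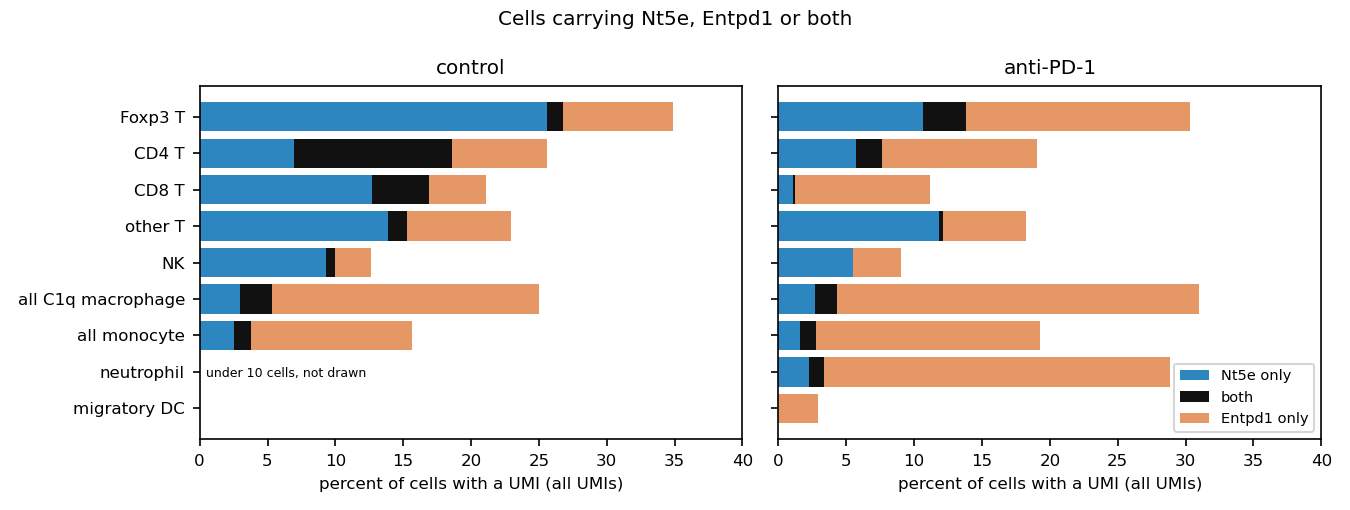
Percent of cells with an *Nt5e* UMI only (blue), both (black) or an *Entpd1* UMI only (orange), all UMIs, in 9 classes of the control (left) and anti-PD-1 (right) library; bars start at 0 and no interval is drawn. Macrophages, monocytes and neutrophils carry mainly *Entpd1* (26.6% of anti-PD-1 neutrophils), whereas *Nt5e* is carried mainly by T and NK cells (26.7% of control Foxp3 T cells).

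*Adora2a*, which encodes the high-affinity receptor ADORA2A (ENSMUSG00000020178, chromosome 10, 75316877 to 75334784, plus strand), was read in lymphocytes and in migratory dendritic cells, the mature cells that carry antigen to lymph nodes. In anti-PD-1 migratory dendritic cells it was 100.1 CPM (73.6 to 133), from 47 UMIs in 29 of 104 cells (27.9%, or 6.73% thinned). That interval lay wholly above those of the 10 other ranked classes. The 33 control migratory dendritic cells had 51.9 CPM (23.8 to 98.6), 9 UMIs in 5 cells, overlapping the anti-PD-1 interval. Cluster 9, led by *Fscn1* and *Ccr7*, had 50.5 and 103 CPM with a ratio of 1.03 whose interval includes 0 (−0.01 to 2.25). Migratory dendritic cells supplied 19.0% of the *Adora2a* UMIs of gated anti-PD-1 cells, against 4.11% of all UMIs.

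Among anti-PD-1 lymphocytes, *Adora2a* was even. CD4 T cells had 41.2 CPM, CD8 T cells 25.8 (21.04 to 31.3), other T cells 25.4, NK cells 25.2 (18.0 to 34.3) and Foxp3 T cells 22.1 CPM, with overlapping intervals. Macrophages were at the other end. Over all C1q macrophages each library held 1 *Adora2a* UMI, in 168 control and 184 anti-PD-1 cells at medians of 5645 and 5780 UMIs, so 0.595% and 0.543% of these deep cells carried it.

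In the control library Foxp3 T cells had 48.8 CPM (26.0 to 83.5) and NK cells 31.0 (21.4 to 43.6), and NK cells held 43.4% of all *Adora2a* UMIs of gated control cells. No *Adora2a* ratio was called. It was −1.14 (−2.37 to 0.09) in Foxp3 T cells, 1.25 (−0.33 to 3.56) in CD8 T cells, where the control rests on 3 UMIs, and −0.30 (−1.01 to 0.41) in NK cells. NK cells without *Gzmc* to *Gzmg* UMIs had 42.5 and 31.3 CPM, and those with them had 16.9 and 19.4 CPM.

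*Adora2b*, which encodes the low-affinity receptor ADORA2B (ENSMUSG00000018500, chromosome 11, 62248984 to 62266453, plus strand), was a myeloid transcript. In anti-PD-1 classical monocytes, gated by *Ly6c2*, it was 50.5 CPM (39.1 to 64.3), from 66 UMIs in 49 of 221 cells. That interval lay wholly above 9 of the 10 other ranked classes and overlapped that of other monocytes (18.9 CPM). In anti-PD-1 T and NK classes the level was 0.253 to 6.04 CPM, and in CD8 T cells 1 UMI was found in 1084 cells (0.0923% at a median of 2952 UMIs). Across the libraries' classes *Adora2a* and *Adora2b* ran opposite, with a Pearson r of −0.73 of log2(CPM + 10) over 18 class and library points, which share 2 libraries and differ in depth.

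In control classical monocytes *Adora2b* was 20.7 CPM (8.92 to 40.7), from 8 UMIs in 6 of 90 cells. The share of cells was 6.67% in the control library and 22.2% after anti-PD-1, or 2.22% and 8.14% after thinning. The log2 ratio was 1.29 (0.23 to 2.56), in a class where 3.55% of 7547 genes were called higher. Over all monocytes it was 15.8 and 38.3 CPM, a ratio of 1.28 (0.35 to 2.34), with 4.12% of genes called higher. With stricter gates the classical monocyte ratio was 1.06 (−0.004 to 2.33) and after thinning 1.95 (−0.10 to 5.10), both short of a call. Conventional cDC2, at 30 cells in each library, had 30.4 CPM in the control library and 33.3 after anti-PD-1.

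Classical monocytes with at least 2 UMIs of *Slpi* and *Il1rn*, which encode a protease inhibitor and the interleukin-1 receptor antagonist, held 3 of the 8 control and 54 of the 66 anti-PD-1 UMIs. Those had 18.6 CPM in the control (3 UMIs, 35 cells) and 69.1 in the anti-PD-1 library (54 UMIs, 127 cells), a ratio of 1.89 (0.27 to 4.21). The remaining classical monocytes had 22.1 CPM (5 UMIs, 55 cells) and 22.9 CPM (12 UMIs, 94 cells), a ratio of 0.05 (−1.56 to 1.91). The split was made after the class values were seen, and the difference between the subsets was not tested.

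Classical monocytes were spread over clusters in unlike proportion: cluster 2 (*Ccl7*, *Ccl8*) held 42 of them in the control and 18 after anti-PD-1, cluster 6 (*Chil3*, *Gngt2*) held 28 and 123, and cluster 10 (*C1qa*, *Ms4a7*, *Arg1*) held 17 and 73. In cluster 2 *Adora2b* was 29.6 and 33.3 CPM, with an interval of the ratio that includes 0. In cluster 6 it was 4.78 CPM (1 UMI) and 22.4 CPM (41 UMIs), with an interval of −0.33 to 7.56. In cluster 10 it was 7.19 CPM (7 UMIs, 152 cells) and 43.9 CPM (48 UMIs, 224 cells), a ratio of 2.61 (1.46 to 4.00). When every cell took the most common gate of its cluster, the classical monocyte ratio was −0.08. That class is then the gated cells of clusters 2 and 6. Over all their cells these clusters have ratios of 0.17 and 2.23, with 118 and 67 cells in the control and 56 and 262 after anti-PD-1. The gated cells of cluster 10 then count as other C1q macrophages, whose ratio became 2.52 (1.35 to 3.92) against 0.29 (−1.18 to 1.96) by the gates. A higher anti-PD-1 level was thus read in myeloid cells under both groupings, but not in the same named class.

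**Figure D5:**
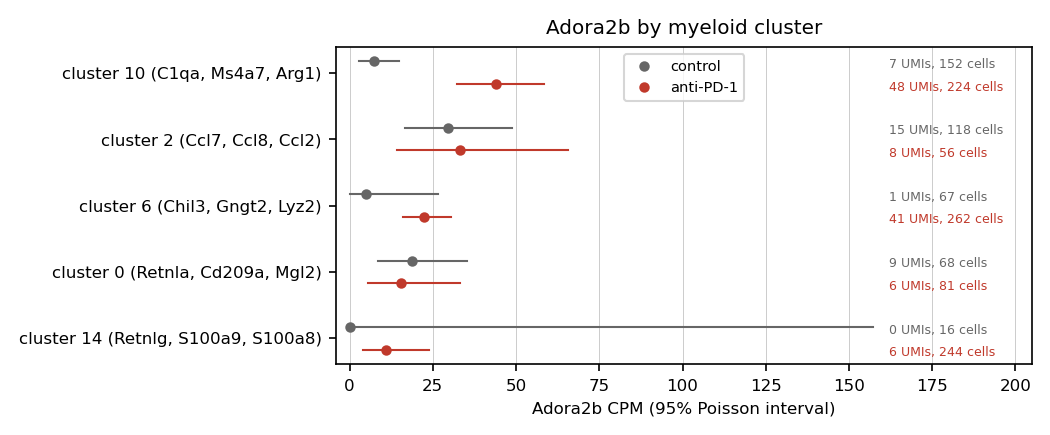
*Adora2b* level (CPM, 95% Poisson interval) in 5 myeloid Leiden clusters named by their leading genes, control in grey and anti-PD-1 in red, with UMIs and cells at the right. Cluster 10 goes from 7.19 to 43.9 CPM with intervals that do not overlap, while cluster 2 has 29.6 and 33.3 CPM.

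*Ada*, which encodes the enzyme that removes adenosine (ENSMUSG00000017697, chromosome 2, 163726584 to 163750239, minus strand), was low everywhere. It ranged from 0 to 9.52 CPM over the 7 ranked control classes and from 0 to 13.6 over the 11 ranked anti-PD-1 classes. The highest was other T cells in the control library and Foxp3 T cells (8 UMIs) after anti-PD-1, and no class had an interval wholly above another's. NK cells had 8.47 and 10.1 CPM. Anti-PD-1 CD8 T cells had 5.31 CPM (21 UMIs), and the control CD8 T cells had 0, with a limit of 10.8 CPM that lies above the anti-PD-1 level. Control Ccl8/Mrc1 macrophages had 20.8 CPM (7 UMIs in 47 cells). No *Ada* ratio was called.

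The other genes of the purine pathway were read from a list of 39. Of these *Enpp3* and *Adora1* had no UMI in gated cells, and *Adora3*, a further adenosine receptor, had 46. Genes with at least 20 UMIs in the higher library were counted as measured. In CD8 T cells 2 of 23 measured genes were past 2-fold higher and 0 lower, beside 10.1% and 5.25% of all genes. In NK cells 0 of 13 were past 2-fold in either direction, beside 3.25% and 0.843%. In all C1q macrophages 2 of 17 were higher and 0 lower, beside 3.53% and 2.91%. In all T cells 3 of 27 were higher and 1 lower, beside 6.1% and 3.39%, and in all monocytes 1 of 21 each way, beside 7.42% and 3.16%. In Foxp3 T cells 1 of 11 was higher and 0 lower, beside 6.95% and 1.38%.

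The largest of these was *Cd38*, an ectoenzyme that breaks down NAD and feeds a second route to adenosine. In other C1q macrophages it was 2.29 CPM in the control (1 UMI) and 84.0 in the anti-PD-1 library (70 UMIs), a ratio of 5.20 (2.67 to 10.5), in a class where 1 of 14 measured genes was past 2-fold higher and 0 lower, beside 6.8% and 2.24%. In all C1q macrophages it was 15.3 CPM (8.77 to 24.9, 16 UMIs) and 72.0 (57.2 to 89.5, 81 UMIs), a smaller ratio of 2.23 (1.45 to 3.10). The ratio in other C1q macrophages thus rests on a gate that leaves 1 of these 16 control UMIs in that class. The rest lie in hypoxic and Ccl8/Mrc1 macrophages. In all monocytes *Cd38* was 5.76 and 25.0 CPM, a ratio of 2.12. *Slc28a2*, a nucleoside transporter, was 13.4 and 28.5 CPM in all C1q macrophages (1.08). *Bst1*, a relative of *Cd38*, was 41.97 and 99.5 CPM in other monocytes (1.24), where 2 of 7 measured genes were past 2-fold higher and 0 lower, beside 8.46% and 4.04% of genes. In classical monocytes it was 114 and 78.8 CPM (−0.53, −1.05 to 0.02), and over all monocytes 84.9 and 82.02 CPM (−0.05).

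In lymphocytes, *Pnp*, whose enzyme acts on inosine after adenosine deaminase, was 23.8 and 55.5 CPM in other T cells (1.22), the only 1 of 10 measured genes past 2-fold there, beside 4.87% of genes higher and 0.73% lower. *Panx1*, a membrane channel that releases ATP, was 7.21 and 27.6 CPM in CD8 T cells (1.94, 0.05 to 4.999). *P2rx4*, an ATP-gated ion channel, was 33.9 and 10.5 CPM in all T cells (−1.69, −2.30 to −1.06), while in Foxp3 T cells it was 56.3 and 40.8 CPM with overlapping intervals and in anti-PD-1 CD8 T cells 4.05 CPM. Its level in all T cells, like that of *Nt5e*, is read over mixtures in which CD8 T cells are 71 of 348 and 1084 of 1716.

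The genes whose class pattern was most like each member were taken by Pearson r of log2(CPM + 10) over the same 18 points, among 5733 or 5734 genes. For *Nt5e* they were *Zfp292* (0.87), *Galnt6* (0.85), *Smco4* and *Rhoh* (0.83 each). For *Entpd1* they were *Rtp4* (0.91), *Xaf1* (0.89), *Ifi47* (0.88) and *Irgm1* (0.87). For *Adora2a* they were *Birc2* (0.94), *Izumo4* (0.92), *Myl6* (0.90) and *Cnn2* (0.89), and for *Adora2b* *Prtn3*, *AI839979*, *Ccl2* and *Slc31a1* (0.87 each). No gene reached the same likeness to *Ada*, for which *Cerk* led with 0.72.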

How the data were processed

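Droplet 3′ single-cell RNA sequencing gave 1 control and 1 anti-PD-1 library. The files the authors deposited hold raw UMI counts of 27998 genes in 737280 barcodes. The submitters' processing notes name Cell Ranger 2.1 and the mm10 genome. No cell or doublet filter of the authors is named there.

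Cells had at least 1000 UMIs and at most 10% mitochondrial UMIs, and were gated by marker sums into 17 classes. Cells with markers of unlike lineages were left out of the classes but not of the clusters, and no doublet caller was run. The members and gene lists were chosen with earlier results of these data known. A level is the UMI sum of a gene over that of all genes in the class, so deep cells weigh more. Ratios needed 50 cells in both libraries. A ratio was called when past 2-fold with its 95% interval on 1 side of 0 and at least 10 UMIs over both libraries, a minimum chosen after the data were seen. Counts over the purine list used 20 UMIs in the higher library. With 1 library per group there is no test and no p-value.

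Named genes were the 5 members, up to 10 purine genes with at least 50 UMIs, the carrier lists, and the 4 genes most like each member (at least 200 UMIs, classes with at least 50 cells). Free RNA was estimated from barcodes of 10 to 50 UMIs, scaled by *Apoe* and *Lyz2* in lymphocytes. Thinning drew 1000 UMIs per cell (seed 1). In the comparisons of carriers it was used only to pick the carriers. Leiden clusters left out the members and used 2000 variable genes, 30 principal components and 15 neighbours. Values per cluster, subset splits, summed classes, the *Cd8b1* gate and the removal of the 4 shared barcodes were added after the data were seen. Other alternatives were UMI and mitochondrial limits, stricter gates, cluster-majority classes, thinning, free-RNA subtraction, leaving out the deepest barcodes, cell means, TMM factors and a gene minimum of 50. Coordinates are from the GENCODE annotation of GRCm38, matched by gene ID. The code was tested on simulated data. Tools were Python 3.11.15, numpy 2.4.6, scipy 1.17.1, pandas 2.3.3, scanpy 1.11.5, leidenalg 0.10.2, matplotlib 3.10.9, R 4.3.3 and edgeR 4.0.16 (TMM only).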

Additional observations from a re-analysis of the deposited data

How the results depend on the processing

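Of 462 alternative values of the log2 ratios, 448 kept within the counting interval of the first value, 12 moved beyond it and 2 reversed. A reversal was counted for called ratios only. Ratios that were not called also changed sign in some settings. *Entpd1* in other T cells, for example, went from −0.43 to 1.07 with cluster-majority classes. *Nt5e* in CD8 T cells stayed called under 9 of 10 alternatives that give an interval, and thinning to 1000 UMIs, which leaves 1 control UMI, gave −1.35. *Nt5e* over all T cells stayed called under 9 of 9. *Entpd1* in Foxp3 T cells stayed called under 5 of 7, and with cluster-majority classes it was 0.29. *Nt5e* in classical monocytes stayed called under 3 of 9. *Adora2b* in classical monocytes stayed called under 6 of 9, and with cluster-majority classes it was −0.0842 there and −0.0842 over all monocytes. The share of cells with both enzymes fell with thinning to 0 (control) and to 0.0981% (anti-PD-1). *Entpd1* in Foxp3 T cells has no ratio with stricter gates, where 36 control cells remain, or after thinning, where no control UMI remains. The shares with both enzymes were not run with free-RNA subtraction, cell means or TMM factors, which do not apply to them. TMM factors moved the ratios by −0.11 (other monocytes) to 0.04. A gene minimum of 50 UMIs in place of 20 moved the share of all genes past 2-fold from 6.95% to 3.78% (higher, Foxp3 T), from 5.25% to 2.20% (lower, CD8 T), from 6.1% to 3.82% (higher, all T) and from 3.25% to 1.15% (higher, NK), among others. Of 1920 alternative levels, 115 moved beyond their interval. No paired analysis was possible because the groups compared share fewer than 2 replicate numbers.

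Depth limits what can be seen. A class level rests on 0 to 115 UMIs of a gene, and a single cell of median depth holds too few UMIs for the absence of a transcript to mean that the cell lacks it. Cluster-majority classes take their name from 36.6% to 95.5% of a cluster's gated cells.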

Other observations

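Cells left without a class and barcodes under the UMI minimum also held the 5 transcripts. In 1184 anti-PD-1 barcodes with at least 100 and fewer than 1000 UMIs, *Entpd1* was 92.6 CPM (68.8 to 122) from 50 UMIs, and in 296 control barcodes it was 56.3 CPM (22.6 to 116) from 7 UMIs. *Nt5e* in the same barcodes was 38.9 and 24.1 CPM, and *Adora2a* 12.97 and 16.1 CPM. Cluster 14, led by the neutrophil genes *Retnlg* and *S100a9*, held 58 anti-PD-1 cells without a class beside 176 gated neutrophils, and its *Entpd1* level was 127 CPM over all 244 cells.

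*P2rx4* was 111 CPM (82.7 to 145) in anti-PD-1 migratory dendritic cells and 127 and 131 CPM over all C1q macrophages of the control and anti-PD-1 libraries, classes that differ in *Adora2a* (100.1 CPM in the first, 0.959 and 0.889 CPM in the others). *Adora3* was 6.71 and 5.34 CPM in all C1q macrophages and 16.1 CPM (6.46 to 33.1) in anti-PD-1 neutrophils, from 7 UMIs. In cluster 10 (*C1qa*, *Ms4a7*, *Arg1*), *Entpd1* was 53.4 and 81.5 CPM, a log2 ratio of 0.61 (0.10 to 1.13) short of 2-fold.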
